A study of Botryllus schlosseri with 12 samples.

Results

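The comparison described here set the vasculature and tunic of Botryllus schlosseri colonies frozen 18 h after surgery against those frozen directly after it (18 against 0 hours post-injury, hpi). It comprised 6 of the 12 libraries of the series, 3 at each time point, chosen by the time point in their labels, over all 32561 contigs of a de novo transcriptome. The remaining 6 libraries, from 6 and 24 hpi, served to estimate the spread and to follow the contigs over time.

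Botryllus schlosseri is a tunicate that lives in colonies, in which many small bodies, the zooids, share 1 tunic and 1 blood system whose vessels run outside the zooids. All subclones came from 1 isogenic strain and were grown apart on glass slides to stage D of the asexual cycle, at which the zooids and buds were cut out. The study describes that small pieces of adult zooid tissue often stayed on the tunic, and their part in the libraries of either time point was not tested. The 0 hpi colonies were then prepared at once for later RNA extraction, and the 18 hpi colonies were first kept in filtered seawater. RNA of all 12 samples was extracted in a single round. Each library is a separate subclone, so p-values measure the spread between subclones of this strain and say nothing of other genotypes. No uninjured colony was included, and time in filtered seawater after surgery passed for the 18 hpi colonies alone, so injury, loss of the zooids and time apart from them cannot be told apart.

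After the loss of all zooids, the vessels and the hemocytes that circulate in them make up most of the living tissue that remains, and a botryllid colony can rebuild a whole body from this state. For this species the study proposes that rebuilding starts from the pieces of zooid tissue left outside the vessels, not from hemocytes. In vertebrates, tissue repair starts with clotting and with activation of complement, a set of plasma proteins that mark targets and recruit phagocytes, and goes on to the remodeling of vessels. Tunicates carry members of the same protein families, and hemocytes and epithelia are among the cells that express them.

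Each value is an estimated count per contig. A contig is an assembled transcript with its open reading frame, and a read that matched several contigs was divided between them, so estimates that are not whole numbers mark such division, and estimates that are exactly whole in all 12 libraries (tolerance 0) show no sign of it. The totals ranged from 2949021 to 3992991 counts at 0 hpi and from 2807144 to 3786668 at 18 hpi, and the median contig held 35 to 48 counts in a library. Levels are given as CPM, normalized counts scaled to a common library size, which are not divided by contig length and compare libraries, not contigs. On the log2 scale libraries of the same time point lay 0.578 to 0.727 apart (root mean square over contigs), and libraries of different time points 1.02 to 1.13 apart. The deposited table gives no gene names, and the names that the study assigned by similarity to human proteins were not used here. Gene names were therefore taken for 4 contigs only, from labels of the study's phylogenetic trees, and the tissue was not checked against markers. In whole tissue, fewer cells of a type and less RNA per cell cannot be told apart.

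More contigs were lower than higher in the vasculature 18 h after surgery. Of 31383 contigs with sufficient counts, 3141 passed a Benjamini-Hochberg adjusted p of 0.05 in edgeR's quasi-likelihood test together with an absolute log2 fold change above 1. Of these, 918 (2.93% of the tested contigs) were higher at 18 hpi and 2223 (7.08%) were lower, or 2.42 lower contigs for each higher contig. Called contigs are those past both limits. The median contig of all those tested had a log2 fold change of 0.009. The split depends on the scaling, since 1439 higher and 1874 lower contigs (56.6% lower instead of 70.8%) were called when libraries were scaled by their totals alone, under which the median contig moved to 0.173. A further 1289 contigs passed the adjusted p with changes inside the fold limit.

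Contigs that fell also fell further than others rose. The median log2 fold change was 1.48 among the higher contigs and -2.04 among the lower contigs. Of the higher contigs 72.3% changed by a log2 fold change of at most 2, against 49.1% of the lower contigs. Between 1 and 2 on this scale there were 664 higher and 1091 lower contigs, between 2 and 3 there were 153 and 480, between 3 and 5 there were 77 and 411, and beyond 5 there were 24 and 241. The lower contigs thus made up 62.2% of the calls in the smallest class and 90.9% in the largest. The classes start from different levels: the median higher contig went from 6.88 to 21.45 CPM and the median lower contig from 29.8 to 6.11 CPM, while the median of all tested contigs was 13.2 CPM at 0 hpi. The 3 libraries of each time point did not overlap in 910 of the higher contigs and in 2190 of the lower contigs. Among all tested contigs, 16.5% lay higher and 17.5% lay lower at 18 hpi without overlap.

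**Figure D1:**
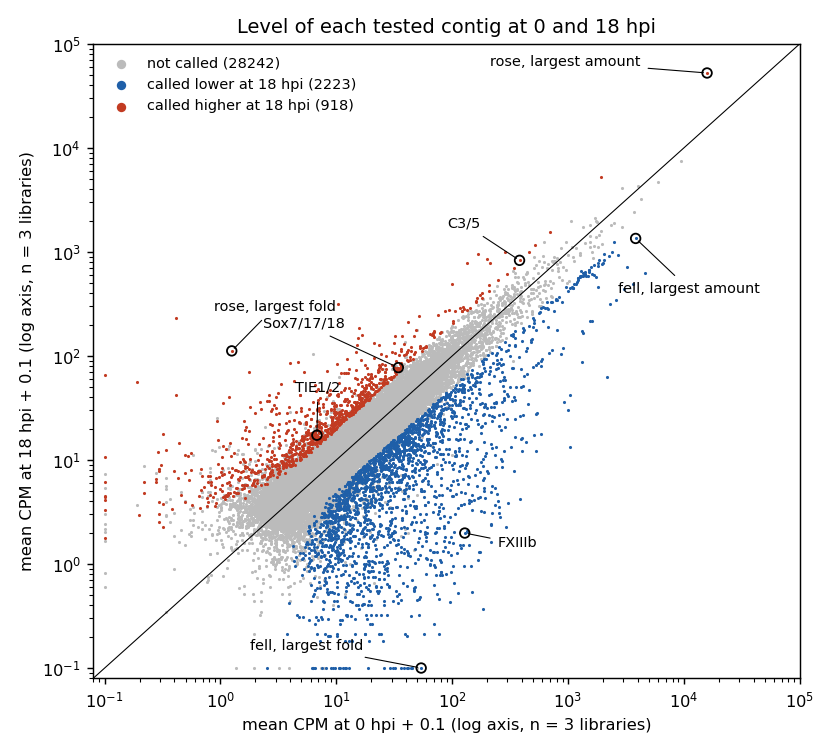
Mean CPM of each tested contig at 0 hpi (horizontal) and 18 hpi (vertical), both on log axes with 0.1 CPM added and 3 libraries each. The 2223 contigs called lower reach far below the diagonal, down to 0 counts at 18 hpi, while most of the 918 called higher stay close to it. Rings mark the 8 contigs described one by one.

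The excess of lower contigs was present at every level of abundance and widest among the most abundant contigs. The tested contigs were ordered by mean log2 CPM over the 6 libraries and divided into 10 equal classes, in each of which 2.36 to 3.76% were called higher. In the 9 lower classes 5.93 to 7.62% were called lower, and in the top class 11.2%, or 350 lower against 93 higher contigs. Precision rose with level, as the median standard error of the log2 fold change was 0.629 in the lowest class and 0.197 in the top class.

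**Figure D2:**
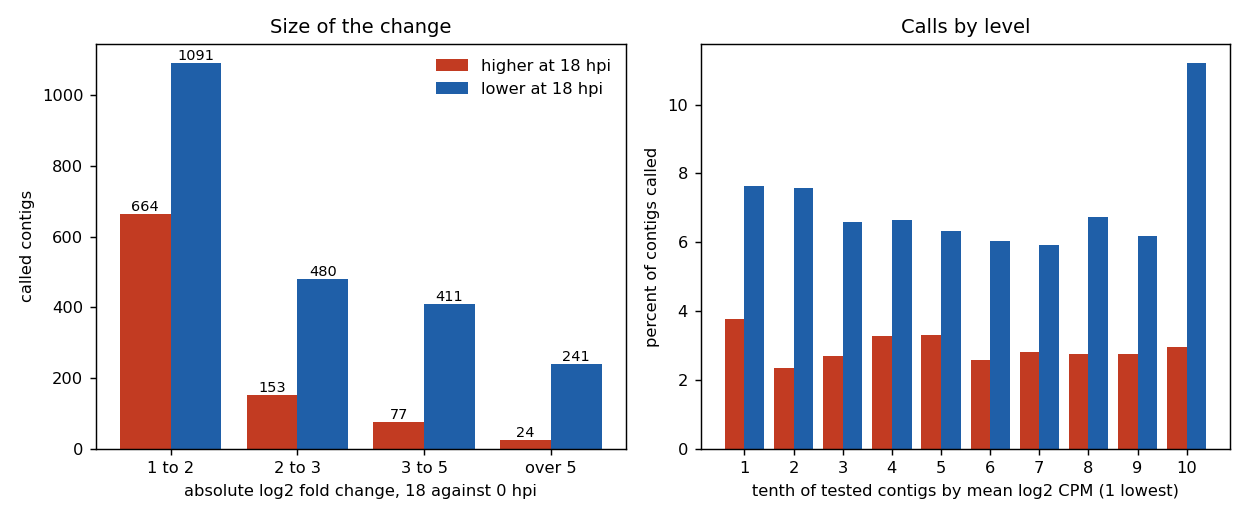
Left, number of contigs called higher and lower at 18 hpi by the absolute log2 fold change. Right, percent of contigs called in each of 10 equal classes of mean log2 CPM. Lower contigs outnumber higher contigs in every class of either panel, by 1091 to 664 in the smallest class and by 241 to 24 in the largest.

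Among the 100 most abundant contigs, chosen by their mean over the 6 libraries, 45 were called lower and 4 higher. Of all tested contigs 7.08% were called lower and 2.93% higher. When libraries were scaled by their totals alone, 1872 of all 2223 lower contigs were still called. How many of the 45 were among them was not counted. The 45 contigs called lower came from 40 different Trinity components and had a median log2 fold change of -1.23. A component is the set of contigs that the assembler joined by shared sequence, so most of these 45 transcripts were not joined with each other. Likeness of sequence between components was not checked. Together they held 8.13% ± 0.175 (SD, n = 3) of the counts at 0 hpi and 3.24% ± 0.289 at 18 hpi. The 4 higher contigs came from 3 components. The share of all 100 contigs was 18.5% ± 0.790 at 0 hpi and 18.2% ± 1.13 at 18 hpi, a difference smaller than the spread between libraries.

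The most abundant contig of every library, TRINITY_DN17129_c7_g1_i6.p1, which has no gene name here, was among the 4. It stood at 14940, 20440 and 12290 CPM in the 0 hpi libraries and at 59390, 50260 and 48230 CPM in the 18 hpi libraries. The groups were far apart, with the lowest 18 hpi library above the highest 0 hpi library. The contig rose by a log2 fold change of 1.73 (SE 0.241, adjusted p = 8.37e-05 by edgeR's quasi-likelihood test) and went from 1.52% to 5.64% of the counts. At 6 hpi it stood at 22590 ± 3356 CPM and at 24 hpi at 40770 ± 6081 CPM (SD, n = 3). Both other contigs of its component rose as well, by 1.46 and 1.79 on the log2 scale. It had the largest gain in CPM among 228 unnamed higher contigs from which examples were taken, those with whole estimates in the 6 libraries compared, a mean of at least 50 counts and libraries that did not overlap. The same rule admitted 850 lower contigs.

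The largest loss in CPM among the 850 was that of TRINITY_DN18245_c0_g8_i2.p1, also without a gene name. Its level was 5198, 2776 and 3548 CPM at 0 hpi and 1293, 1304 and 1453 CPM at 18 hpi. The 0 hpi libraries differed widely among themselves, but each was above every 18 hpi library. The log2 fold change was -1.51 (SE 0.265, adjusted p = 0.000739 by edgeR's quasi-likelihood test), and the contig moved from rank 7 to rank 23 of the tested contigs by mean CPM. All 11 other contigs of its component, which spans 10 Trinity genes, fell by similar amounts, between -1.65 and -1.25 on the log2 scale. A Trinity gene is a subset of a component whose contigs the assembler treats as forms of 1 gene.

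The called contigs as a whole turned over a considerable part of each library. Contigs called lower held 24.5, 23.5 and 23.6% of the counts in the 0 hpi libraries and 7.41, 7.56 and 6.87% in the 18 hpi libraries. Contigs called higher held 3.21, 3.73 and 2.84% at 0 hpi and 11.7, 10.9 and 10.96% at 18 hpi. These shares follow from the calls and describe their weight. The libraries of the other times, which were not in the contrast, had intermediate shares at 6 hpi, with 14.99% ± 1.53 in the lower contigs and 7.13% ± 0.228 in the higher contigs. At 24 hpi the shares were 8.49% ± 0.946 and 9.89% ± 0.483 (SD, n = 3).

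**Figure D3:**
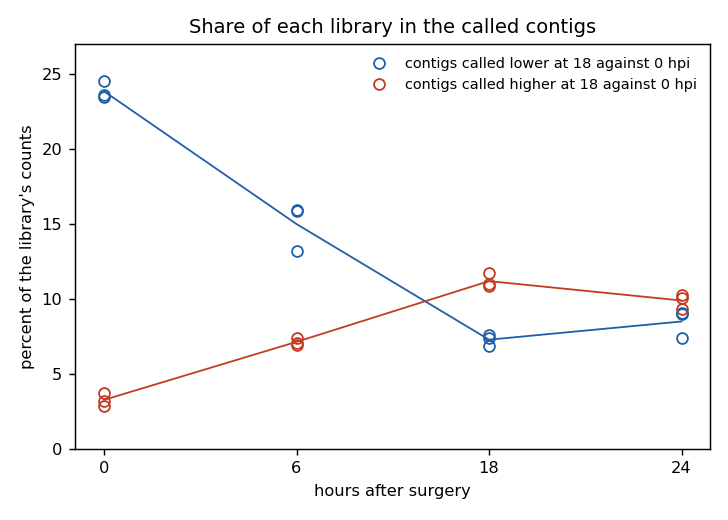
Percent of the counts of each library (circles, 3 per time point) in the contigs called lower (blue) and higher (red) at 18 against 0 hpi, with lines through the means. The lower contigs go from 23.85% at 0 hpi to 7.28% at 18 hpi and the higher contigs from 3.26% to 11.2%. The libraries of 6 hpi lie between those of 0 and 18 hpi in both classes.

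Of the 4 contigs with a gene label, coagulation factor XIIIb changed most. In vertebrates factor XIII cross-links fibrin, and its B chain carries the enzyme in plasma. The contig TRINITY_DN13609_c0_g3_i1.p1 stood at 80.9, 132 and 173 CPM at 0 hpi and at 2.37, 2.98 and 0.312 CPM at 18 hpi, where the 3 libraries held 7, 12 and 1 counts. Every 0 hpi library was far above every 18 hpi library. The log2 fold change was -6.02 (SE 0.445, adjusted p = 7.29e-07 by edgeR's quasi-likelihood test), the 125th largest of the lower contigs. It was at 38.3 ± 10.2 CPM at 6 hpi and at 1.03 ± 0.547 CPM at 24 hpi. The other 3 contigs of its component fell in parallel, by -6.60 to -5.72. Their summed level with the named contig was 212, 340 and 417 CPM at 0 hpi and 4.40, 7.44 and 0.937 CPM at 18 hpi, and all 4 had whole estimates in all 12 libraries, with no sign of reads divided between contigs.

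Complement C3/5, the central protein of the complement cascade, moved the other way. TRINITY_DN18533_c0_g2_i2.p1 stood at 464, 283 and 399 CPM at 0 hpi and at 716, 858 and 920 CPM at 18 hpi. All 18 hpi libraries were above all 0 hpi libraries, and the lowest value belonged to 0 hpi replicate 2. The log2 fold change was 1.12 (SE 0.200, adjusted p = 0.000824 by edgeR's quasi-likelihood test). The call rests on that library, since without it the log2 fold change was 0.95, inside the fold limit (adjusted p = 0.00566). The level at 6 hpi was 1023 ± 24.0 CPM and at 24 hpi 910 ± 81.4 CPM. Of the 4 other contigs of its component 3 were called higher, and the log2 fold changes of all 4 lay between 0.89 and 1.18. None of the 5 had whole estimates in every library, so the values of the single contigs depend on how reads were divided among them. Their sum, in which such a division among the 5 cancels, was 1850, 1180 and 1474 CPM at 0 hpi and 2825, 3327 and 3589 CPM at 18 hpi.

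The remaining labels belong to regulators. In vertebrates TIE receptors are tyrosine kinases of the endothelium that bind or modulate angiopoietin signals during vessel remodeling, and Sox7, Sox17 and Sox18 are transcription factors of endothelial differentiation. The TIE1/2 contig TRINITY_DN13206_c4_g12_i1.p1 was at 7.13, 5.34 and 7.63 CPM at 0 hpi and at 15.2, 15.9 and 20.6 CPM at 18 hpi. The groups did not overlap, at a depth of only 20 to 26 counts in the 0 hpi libraries. It rose by 1.36 on the log2 scale (SE 0.259, adjusted p = 0.00143 by edgeR's quasi-likelihood test). Of the other 4 contigs of its component 1 was called higher (log2 fold change 1.29, adjusted p = 0.0219), and the 3 others had values of 0.26, 0.48 and 1.21 that did not pass the test.

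The Sox7/17/18 contig TRINITY_DN16425_c0_g1_i6.p1 was at 36.0, 29.1 and 37.6 CPM at 0 hpi and at 72.7, 74.9 and 84.0 CPM at 18 hpi. The spread within each time point was small beside the gap between them. It rose by 1.17 (SE 0.198, adjusted p = 0.000507 by edgeR's quasi-likelihood test). Its estimates were not whole in 5 of the 6 libraries compared, so its values depend on how reads were divided. The other 2 contigs of its component were inside the fold limit, at 0.67 (adjusted p = 0.0272) and 0.70 (adjusted p = 0.162). The sum of the component was 81.6, 61.1 and 81.3 CPM at 0 hpi and 137.3, 137.3 and 150.5 CPM at 18 hpi. TIE1/2 and Sox7/17/18 had intermediate mean levels at 6 hpi, of 9.87 and 45.5 CPM, and at 24 hpi, of 13.2 and 66.5 CPM.

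**Figure D4:**
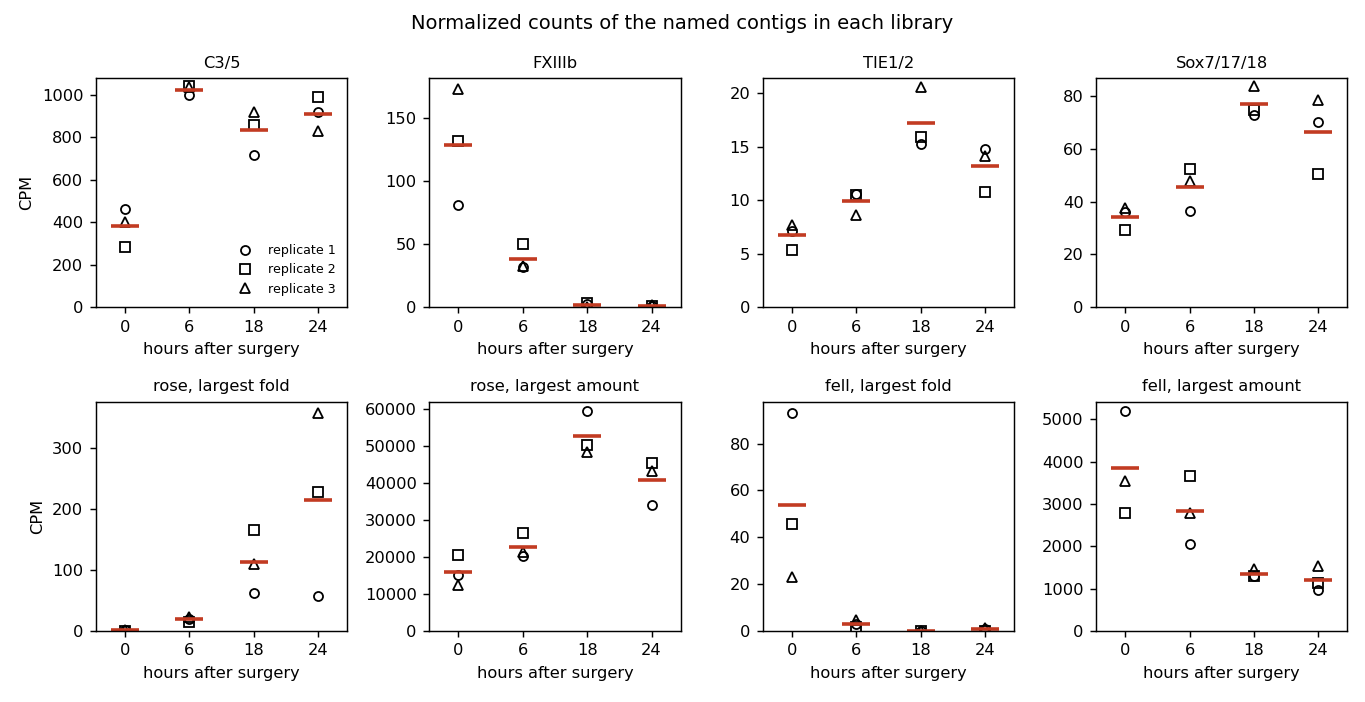
CPM of the 8 named contigs in each of the 12 libraries (symbols by replicate, red bars the means of 3), on linear axes that start at 0 and differ between panels. In all 8 panels the 0 and 18 hpi libraries do not overlap, which was a condition for the choice of the contigs without a gene label. FXIIIb and the contig that fell by the largest fold are close to 0 from 18 hpi on, while C3/5 has its highest mean, 1023 CPM, at 6 hpi.

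The largest fold rise among the 228 higher contigs was that of TRINITY_DN13105_c6_g4_i2.p1. It had 4, 1 and 6 counts in the 0 hpi libraries and 182, 666 and 349 counts in the 18 hpi libraries, or 1.43, 0.267 and 1.76 CPM against 61.6, 165 and 109 CPM. Pooled over libraries the level was 106 times as high at 18 hpi. The log2 fold change was 6.61 (SE 0.919, adjusted p = 0.00115 by edgeR's quasi-likelihood test). At 6 hpi the contig had reached 18.8 ± 4.06 CPM and at 24 hpi 213 ± 150 CPM, where the lowest library was at 57.5 and the highest at 357 CPM. In its component, 1 other contig was called higher, with a log2 fold change of 3.52 and mean levels of 1.65, 43.4, 18.8 and 67.7 CPM in the order of time. The last 2 contigs of the component did not pass the test, at 0.54 and -0.72.

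The largest fold loss among the 850 lower contigs was that of TRINITY_DN6963_c0_g1_i1.p2. It had 261, 171 and 79 counts at 0 hpi and 0 counts in all 3 libraries at 18 hpi, so its level was at least 174-fold lower, against a floor of 3 counts over the group (adjusted p = 0.000151 by edgeR's quasi-likelihood test). The 0 hpi libraries differed widely, at 93.05, 45.6 and 23.2 CPM. The call was lost when the 6 libraries were fitted alone (adjusted p = 0.0603). It had 7, 4 and 12 counts at 6 hpi and 3, 0 and 5 counts at 24 hpi. The other 3 contigs of its component fell too, by -8.20 to -6.26. The 4 are not independent, since 3 of them are reading frames of 1 assembled transcript.

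**Figure D5:**
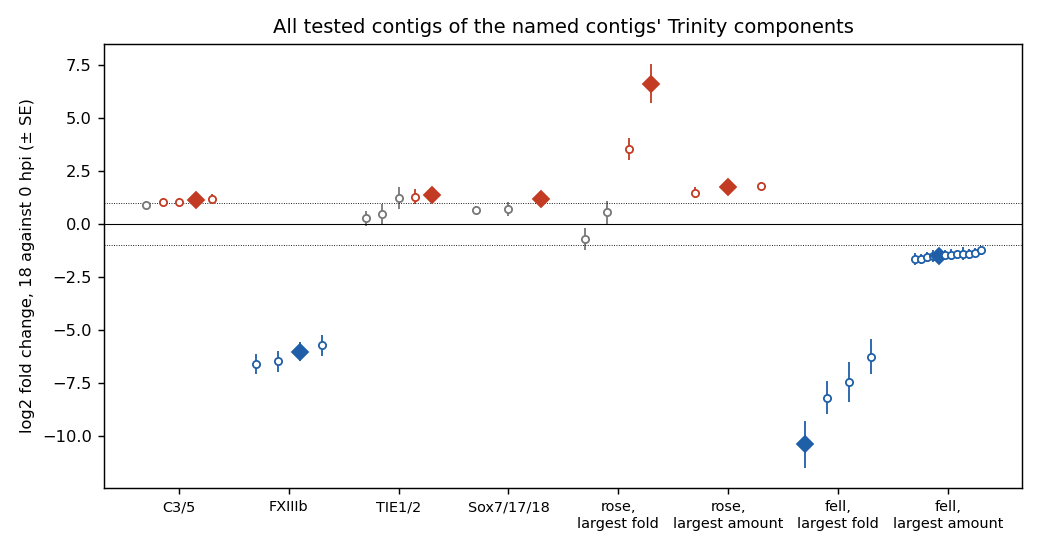
Log2 fold change at 18 against 0 hpi, with its standard error, of all tested contigs in the Trinity components of the 8 named contigs. Diamonds are the named contigs, circles the others, red is called higher, blue called lower and grey not called. The contigs of the FXIIIb component lie between -6.60 and -5.72, while those of TIE1/2 spread from 0.26 to 1.36.

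Loss of a transcript from all libraries was more frequent than its appearance. With 0 counts in every library of one time point and at least 10 in every library of the other, 28 contigs were off at 18 hpi and 4 were on. The 28 came from 25 components and had a median of 46.5 counts per 0 hpi library. Against the floor of 3 counts over the group they were at least 20.1-fold to 174-fold lower, with a median bound of 40.4-fold, and 26 entered the test and were called lower. All but 3 of the 28 had counts at 6 hpi, with a median of 16.5 summed over the 3 libraries, and all but 4 had counts at 24 hpi, with a median sum of 8. The 4 contigs that appeared had between 10 and 374 counts in the 18 hpi libraries and were all called higher. Against the same floor they were at least 13.7-, 14.0-, 206- and 33.9-fold higher. None of the 4 had whole estimates in all 6 libraries. Of the 28 contigs that were off, 16 had whole estimates, so divided reads occurred on both sides. With 1 library left out, 5 to 17 contigs were on and 29 to 73 were off. Leaving a library out loosens the rule, so the numbers of 28 and 4 could not fall. By a looser measure, from at least 20 CPM to under 1 CPM or back, 108 contigs were nearly lost and 7 nearly gained.

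More Trinity genes had contigs called in the same direction than in both directions. Of 3824 Trinity genes with at least 2 tested contigs, 652 had a called contig. In 365 of these 1 contig was called, in 277 at least 2 were called in the same direction (74 higher, 203 lower) and in 10 contigs were called in both directions. Among contigs with whole estimates in all libraries, 41 Trinity genes had at least 2 calls in the same direction and 1 had calls in both. Reading frames of 1 assembled transcript count as separate contigs in these numbers and are not independent. As 70.8% of all calls were lower, some agreement would arise without any link between contigs. How much was not worked out. Contigs with whole estimates were called in 9.61% of 22095 cases, 74.2% of them lower, and contigs with divided estimates in 11% of 9288 cases, 63.6% of them lower.

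Components called as a whole were more often lower than higher. Of 2946 components with at least 4 tested contigs, all contigs were called lower in 68 (427 contigs) and all were called higher in 13 (62 contigs). As 70.8% of all calls were lower, some excess of lower components would arise from that share alone. How much was not worked out. Contigs of 1 component were joined by shared sequence and are not independent. Median log2 fold changes ran from -7.83 to -1.11 in the 68 and from 1.16 to 4.48 in the 13. There were 7 components of at least 10 contigs among the lower ones, while the largest higher one had 7 contigs.

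The components described next were chosen after their values were seen, for the number of called contigs, and get no test of their own. The largest in which every contig was called lower had 23 contigs in 7 Trinity genes, 21 of them with whole estimates, with log2 fold changes from -7.59 to -3.86. Its summed level was 2373, 1113 and 897 CPM at 0 hpi and 47.4, 11.9 and 8.43 CPM at 18 hpi. Replicate 1 was the highest at both time points. Most of the loss had happened by 6 hpi, where the sum was 74.1 ± 32.9 CPM, and at 24 hpi it was 26.0 ± 7.34 CPM.

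The component with the most called contigs had 32 of 36 called lower, in 16 Trinity genes. Its sum went from 2276, 2515 and 1849 CPM at 0 hpi to 253, 137 and 103 CPM at 18 hpi, with 290 ± 77.8 CPM at 6 hpi and 125 ± 26.1 CPM at 24 hpi. The largest component in which every contig was called higher had 7 contigs in 7 Trinity genes and log2 fold changes from 1.29 to 1.70. It stood at 99.8, 59.5 and 87.2 CPM at 0 hpi and at 235, 191 and 286 CPM at 18 hpi. In the 24 hpi libraries it was at 122, 186 and 158 CPM, below all 18 hpi libraries.

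Among the higher contigs, the component with the most calls had 11 of 14 called and log2 fold changes of all 14 between 1.02 and 2.58. Its sum was 240, 169 and 259 CPM at 0 hpi and 494, 547 and 595 CPM at 18 hpi. Unlike the component of 7 contigs it was highest at 6 hpi, with 1115, 1376 and 1129 CPM, and stood at 534, 509 and 335 CPM at 24 hpi.

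The 6 and 24 hpi libraries, none of which entered the contrast, show how the called contigs moved at other times. Between 6 and 24 hpi 2.01% of all tested contigs were called higher and 4.13% lower by the same test. Of the 918 contigs higher at 18 against 0 hpi, 181 (19.7%) were higher and 51 (5.56%) lower at 24 against 6 hpi, with a median log2 fold change of 0.36. Of the 2223 lower contigs, 624 (28.1%) were lower and 28 (1.26%) higher, with a median of -0.75, against 0 for all tested contigs. In both classes the share called in the same direction was above that of all tested contigs, while most of their contigs were not called between 6 and 24 hpi. In the opposite direction the share was above that of all tested contigs for the higher contigs (5.56% against 4.13%). For the lower contigs it was below (1.26% against 2.01%). Both contrasts come from 1 fit with 1 estimate of the spread, so a contig with little spread is called more readily in either.

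The call at 24 against 6 hpi divides the called contigs into classes, whose levels by time are given as a description. Their levels at 6 and 24 hpi follow in part from that call. In the 181 contigs called higher in both contrasts, the median log2 CPM of a library was 2.70 ± 0.127, 3.17 ± 0.0272, 4.57 ± 0.0636 and 4.86 ± 0.0576 at the 4 successive time points (mean ± SD of 3 libraries). Their 6 hpi level was nearer to that of 0 hpi than to that of 18 hpi. In the 686 higher contigs not called between 6 and 24 hpi it was 2.98 ± 0.0410, 4.13 ± 0.0135, 4.42 ± 0.0162 and 4.30 ± 0.111, so most of the distance was covered by 6 hpi. The 51 contigs higher at 18 hpi but lower at 24 against 6 hpi stood at 3.14 ± 0.234, 5.96 ± 0.0754, 4.51 ± 0.179 and 4.52 ± 0.154, with their highest level at 6 hpi.

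The lower contigs divided in the same manner. The 624 contigs lower in both contrasts stood at 5.46 ± 0.0676 at 0 hpi and still at 4.93 ± 0.168 at 6 hpi, then at 3.01 ± 0.0387 at 18 hpi and 2.97 ± 0.205 at 24 hpi. The 1571 lower contigs not called between 6 and 24 hpi had come down by 6 hpi, with 4.70 ± 0.140, 3.23 ± 0.0858, 2.60 ± 0.0681 and 2.84 ± 0.0925. The 28 contigs lower at 18 hpi but higher at 24 against 6 hpi had their lowest level at 6 hpi, with 4.52 ± 0.469, 1.91 ± 0.427, 2.99 ± 0.0967 and 3.72 ± 0.133. The values at 6 and 24 hpi in these classes follow in part from the second call and describe the classes.

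Of the named contigs, FXIIIb fell between 6 and 24 hpi as well, by a log2 fold change of -5.06 (adjusted p = 2.82e-05 by edgeR's quasi-likelihood test). The unnamed contig with the largest loss in amount also fell, by -1.23 (adjusted p = 0.00682), and the unnamed contig with the largest fold rise also rose, by 3.49 (adjusted p = 0.0128). C3/5 had a log2 fold change of -0.17 (adjusted p = 0.698), TIE1/2 of 0.44 (adjusted p = 0.368) and Sox7/17/18 of 0.56 (adjusted p = 0.0990), which did not pass. The unnamed contig with the largest fold loss had -1.91 (adjusted p = 0.301), which did not pass either. The most abundant contig had 0.85 with an adjusted p of 0.0327, inside the fold limit.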

How the data were processed

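Ribosomal reads were taken out by the authors, who trimmed the others with Trimmomatic 0.30, assembled them with Trinity, selected open reading frames, collapsed similar transcripts and quantified each library with kallisto 0.43.1 (versions from the submitters' processing notes). The deposited values are estimated counts for 32561 contigs, neither scaled to library size nor divided by contig length, from RNA extracted in a single round. No genome was used. For the present values the estimated counts were rounded and scaled by TMM, with factors of 0.941 to 0.986 at 0 hpi and 1.06 to 1.10 at 18 hpi, and filterByExpr, given the time points, retained 31383 contigs. All 12 libraries entered 1 robust quasi-likelihood fit (R 4.3.3, edgeR 4.0.16) without covariates, with Benjamini-Hochberg adjustment over all tested contigs and calls as defined above (thresholds of 0.05 and 1). The standard error of a log2 fold change is its size over the root of the F statistic. DESeq2 1.42.0 and limma 3.58.1 served as alternatives. The prior count of log2 CPM was 2.

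Contigs were named where a label of the study's trees matched a row, which gave 4. The Ets-1 label was not matched and has no value here, and the TIE1/2 label lacks its reading frame, of which the table holds 1. Among unnamed contigs with estimates exactly whole in all 6 libraries compared, a mean of at least 50 counts and libraries that did not overlap (228 higher, 850 lower), the largest fold and the largest difference in CPM were taken in each direction. The members and lists were chosen with earlier results of these data known. On counts simulated for 18 against 0 hpi, 200 of 31383 contigs were changed, as many raised as lowered. Of those with a log2 fold change of 1.5, 63% were recovered, and 77% of those with 2, and 15 others were called. The data had 3141 calls, most of them lower. The simulation therefore does not test the calls or the scaling at that share and split. No 2 replicates were alike enough to be 1 library, with a chi-square per degree of freedom of at least 3.18. Functional enrichment was not run, as the study's name table was at hand only in part, with no match to a human protein in the rows given, and was not used here. Contig sequences were not used here either.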

Additional observations from a re-analysis of the deposited data

How the results depend on the processing

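No contig's call changed sign under the alternatives fitted per contig. Counts summed per Trinity gene, with 727 genes higher and 1868 lower, cannot be set against contigs. Of 134 alternative values of the 8 named contigs 132 kept their call. The exceptions are C3/5 without 0 hpi replicate 2 and the contig with the largest fold loss in the fit of 6 libraries, given above. The 2 most abundant named contigs have no value without the 20 most abundant contigs. The 134 values do not include adjusted p alone or the test against a log2 fold change of 1. Under these settings the named contigs were not followed. Higher and lower counts of 916 and 2263 came from DESeq2, which shared 868 and 2165 contigs with the calls, and 851 and 2119 from limma-voom. With adjusted p alone there were 1656 higher and 2774 lower contigs (62.6% lower), and of the higher ones 287 were higher at 24 against 6 hpi; testing against a log2 fold change of 1 (glmTreat) left 204 higher and 1058 lower (83.8% lower). With library totals as scale there were 1439 higher contigs, and the shares of counts at 0 and 18 hpi became 4.42 and 13.7% for higher and 19.9 and 5.24% for lower contigs. With 1 library left out 778 to 909 contigs were higher and 1811 to 2113 lower, and 506 (55.1%) of the higher and 1488 (66.9%) of the lower calls held without each library in turn; the share of higher contigs at 18 hpi was then 10.9 to 11.9%, that of lower contigs 20.9 to 23.6% at 0 hpi and 5.97 to 7.005% at 18 hpi. Contigs on at 18 hpi numbered 7 with a minimum of 5 counts, 1 with 20, and 5 to 17 with a library left out. Contigs off numbered 17 with a minimum of 20 and 29 to 73 with a library left out. Leaving a library out can only keep or raise these numbers. Contigs with whole estimates alone gave 41 Trinity genes with calls in the same direction and 1 with both. The replicate numbers did not pair the libraries, since deviations of libraries with the same number correlated at -0.103 to -0.051 across contigs; with the replicate block 887 contigs were higher and 2100 lower. Counts per contig limit the lowest of the 10 classes of level, where the median was 10.7 counts.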

Other observations

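Some differences as large as many called ones did not pass the test. In 113 tested contigs the mean CPM differed over 4-fold between the time points (1 CPM added) without a call. Their highest library was 0 hpi replicate 2 in 37, 18 hpi replicate 3 in 27, 0 hpi replicate 3 in 17, 0 hpi replicate 1 in 16, 18 hpi replicate 1 in 9 and 18 hpi replicate 2 in 7. In 13 of the 113 that library was over 4 times the next one, and 6 of these 13 were high in 0 hpi replicate 1. This class was chosen after the values were seen.

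A minority of contigs differed widely between subclones of 1 time point. Between the highest and the lowest 0 hpi library, 7.92% of the 2223 lower contigs, 6.1% of the 918 higher contigs and 5.4% of all tested contigs differed over 3-fold (1 CPM added). At 18 hpi these shares were 5.22, 1.53 and 3.8%. At 18 hpi the highest of the 3 libraries was replicate 1 in 42.2% of the lower contigs, compared with 35.1% of all tested contigs. The lower and higher contigs were chosen on these libraries, so the shares are a description.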
